A study of Mus musculus with 20 samples.

Results

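The transcripts described here are those of the 10 core genes that write, remove and read N6-methyladenosine (m6A), listed by name, with earlier results of these data known: the writers Mettl3, Mettl14 and Wtap, the erasers Fto and Alkbh5, and the readers Ythdf1, Ythdf2, Ythdf3, Ythdc1 and Ythdc2. All 10 were found among the 23284 genes of each file, and all passed the filter on low counts. They were measured by RIP-Seq, the sequencing of RNA that precipitates with a protein, in 20 libraries of mouse embryonic stem cells (ESCs). In the Tet1-KI line the endogenous Tet1 gene carries a C-terminal Flag, HA and Twin-Strep tag, in Tet2-KI the Tet2 gene carries it, and in Tet2dRBD-KI the tagged Tet2 lacks its RNA-binding domain. The cells were otherwise wild type and grew on gelatin with leukemia inhibitory factor. Each line came from picked clones, and how many clones it stands for is not given in the sources used here. RNA precipitated with anti-Flag antibody (IP) was compared with RNA taken without antibody (Input) in 2 pairs of Tet1, 4 of Tet2 and 4 of Tet2dRBD. The precipitation started from cytoplasmic extract, whereas the input was total RNA, so protein-bound RNA and cytoplasmic RNA cannot be told apart in an IP to input ratio. IgG control reactions were not analysed here.

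m6A is the most common internal modification of mRNA. A nuclear complex writes it: Mettl3 carries the catalytic site, Mettl14 holds the RNA and supports Mettl3, and Wtap brings the pair to its targets. The demethylases Fto and Alkbh5 remove the mark, and both are iron- and 2-oxoglutarate-dependent dioxygenases, the enzyme family to which the Tet proteins belong as oxidases of 5-methylcytosine. Proteins with a YTH domain bind the methylated base. In ESCs the pathway is known for limiting how long mRNAs of pluripotency factors persist, and loss of Mettl3 is known to hamper the exit from pluripotency. The comparison asks whether the mRNAs of this machinery were themselves recovered with Tet1 or Tet2, and whether the RNA-binding domain mattered for it.

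The libraries held 21078995 to 37576638 expected counts. The 8 pluripotency markers summed to between 13539 and 17340 TPM (transcript abundance per length, scaled to the same total in every library) in the inputs, while 8 fibroblast markers summed to between 12.4 and 64.4 TPM. Of these, Col3a1, Lum, Dcn and Postn were below 1 TPM in every input. Col1a1, Col1a2, Thy1 and Pdgfra were not, and Thy1 reached 35.8 TPM. The summed primitive endoderm markers ranged from 13.4 to 155 TPM and the neuroectoderm and mesoderm markers from 12.5 to 24.3 TPM. The deposited names place the libraries in 3 sets, and Tet1 was measured only in the set that also holds replicates 3 and 4 of the other lines. Replicates 3 and 4 were close repeats: the mean chi-square per gene between them, where 1 is counting noise, was 2.79 to 3.62 in 3 of their 4 groups and 17.2 in the Tet2dRBD inputs, against 140 or more for any other pair of Tet2 or Tet2dRBD libraries of a group. Between the 2 Tet1 replicates, which also share a set, the mean chi-square was 7.92 in IP and 8.04 in input. The Tet1 replicates were thus nearer to close repeats than to the other pairs, and they were not merged where replicates 3 and 4 were. The labels do not say which replicates were separate cultures, so p-values measure the spread between these libraries. Tet2dRBD replicate 4 had the lowest IP to input ratio of its line for 6 of the 10 genes, and its values are given beside the results that rest on it.

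In the inputs the 10 transcripts spanned a wide range of levels on the TPM scale, which is per transcript length. The median over the 10 inputs was 74.9 TPM for Ythdf1, 41.8 for Fto, 36.3 for Wtap, 32.9 for Alkbh5, 14.1 for Mettl3, 13.2 for Ythdf2, 12.6 for Ythdc1, 11.1 for Mettl14, 9.26 for Ythdf3 and 1.31 for Ythdc2. Ythdf1 was above Fto in 10 of 10 inputs, Alkbh5 above Mettl3 in 10 of 10 and Ythdf3 above Ythdc2 in 10 of 10. The order of Fto, Wtap and Alkbh5 was not fixed, since each neighbour was the higher in only 6 of 10 inputs. The same was true of Mettl3, Ythdf2 and Ythdc1, and of Mettl14 and Ythdf3, whereas Ythdc1 exceeded Mettl14 in 9 of 10. Bulk RNA cannot tell fewer cells with a transcript from less of it per cell.

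**Figure D1:**
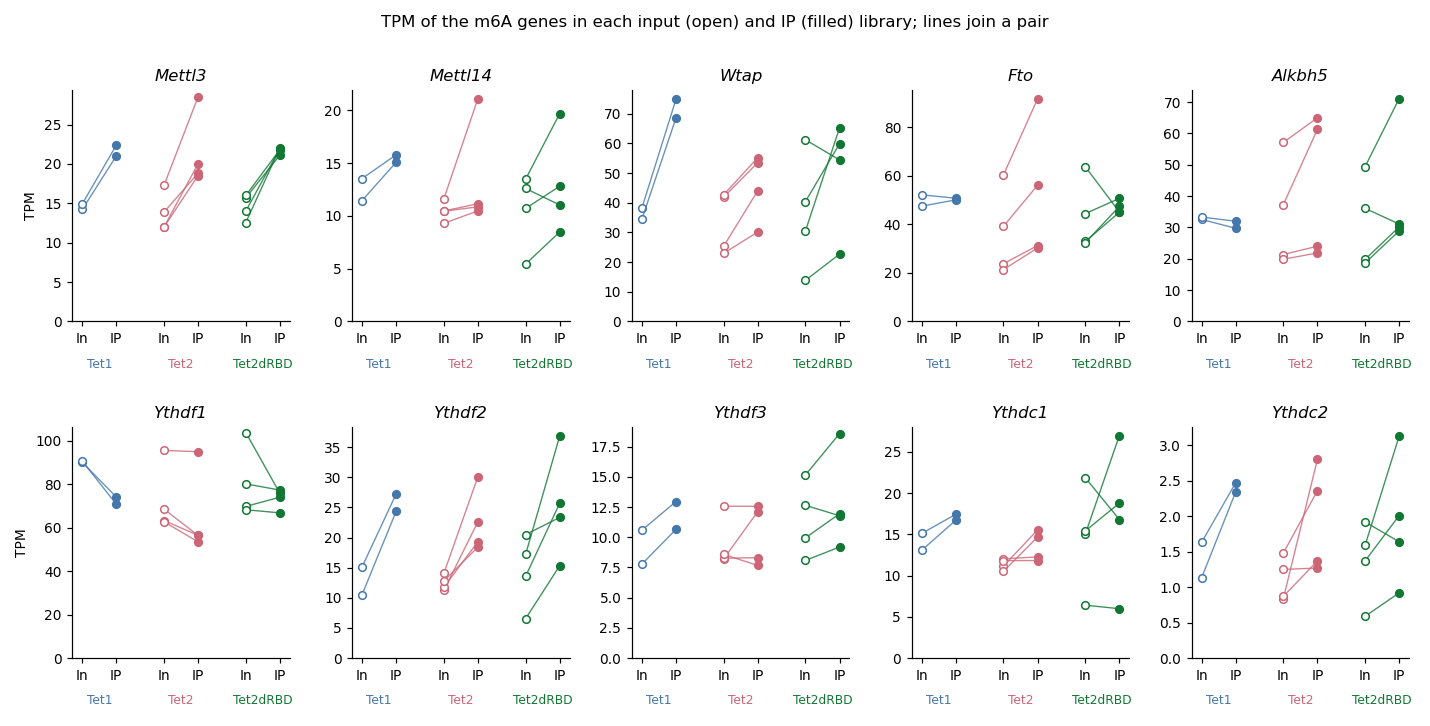
TPM of each of the 10 m6A genes (y axis, from 0, with its own scale in each panel) in every input (open circles) and IP library (filled circles) of Tet1 (blue), Tet2 (red) and Tet2dRBD (green); each line joins an IP with the input of its number. Mettl3 and Ythdf2 are higher in IP in 10 of 10 pairs, and Ythdf1 is lower in 9 of 10.

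Among the writers, Mettl3 was the steadiest. In Tet1 its inputs were at 14.2 and 14.9 TPM and its IPs at 21.01 and 22.4 TPM. In Tet2 the inputs of replicates 1 to 4 were at 12.0, 17.3, 12.0 and 13.9 TPM and the IPs at 18.5, 28.5, 20.02 and 18.8 TPM. In Tet2dRBD the inputs were at 12.6, 14.0, 15.7 and 16.0 TPM and the IPs at 22.0, 21.9, 21.1 and 21.8 TPM. Every IP lay above every input within each of the 3 lines, so the groups did not overlap. The share of all genes whose groups did not overlap was not counted, for Mettl3 or for the genes described below. The log2 ratio of IP to input, taken with 1 added to each TPM, stayed between 0.41 and 0.77 over the 10 pairs, the narrowest range of any gene of the set. In the fit of edgeR, which scales libraries so that the typical gene is near 0, Mettl3 was higher in Tet2 IP by 0.31 ± 0.11 (log2, SE; adjusted p = 0.042). The fitted values of 0.43 ± 0.15 in Tet1 (adjusted p = 0.116) and 0.31 ± 0.11 in Tet2dRBD (adjusted p = 0.0641) missed the threshold of 0.05. The Tet2 call was close to it: leaving out any of 7 of the 10 pairs (both of Tet1, all 4 of Tet2 or Tet2dRBD replicate 3) raised the adjusted p to between 0.0532 and 0.167, with a log2 change of 0.25 to 0.38 over all 10. With the close repeats, replicates 3 and 4, merged into 1 pair it was 0.28 with an adjusted p of 0.149. A linear model (limma) on log2(TPM + 1) put Mettl3 past the threshold in Tet2 (0.60, adjusted p = 0.00194) and Tet2dRBD (0.55, adjusted p = 0.0058). The medians of all genes were 0.23 and 0.19 there. In Tet1 it was 0.54 (adjusted p = 0.0571).

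Wtap, the subunit that places the complex in the nuclear speckle, had with Ythdf2 the highest fitted changes of the set in Tet1, in an order that depended on the setting. In Tet1 its inputs were at 38.2 and 34.4 TPM and its IPs at 74.8 and 68.5 TPM. In Tet2 the inputs of replicates 1 to 4 were at 25.3, 23.0, 41.9 and 42.6 TPM and the IPs at 44.0, 30.1, 53.5 and 55.2 TPM. In Tet2dRBD the inputs were at 30.5, 13.8, 40.4 and 61.2 TPM and the IPs at 65.1, 22.7, 59.8 and 54.4 TPM. Each IP lay above its own input in 9 of 10 pairs, with Tet2dRBD replicate 4 as the exception, but IPs and inputs overlapped within Tet2 and within Tet2dRBD. The fitted log2 change was 0.96 ± 0.24 in Tet1 (adjusted p = 0.044, edgeR), a level 1.95 times that of input. In Tet2 it was 0.30 (95% interval -0.07 to 0.67, adjusted p = 0.191) and in Tet2dRBD 0.40 (0.03 to 0.78, adjusted p = 0.118). Without Tet2dRBD replicate 4 the Tet2dRBD value was 0.64 with an adjusted p of 0.0106. The Tet1 call did not survive the loss of either Tet1 pair (adjusted p = 0.347 and 0.565) or of Tet2 replicate 3, Tet2 replicate 4 or Tet2dRBD replicate 3 (adjusted p = 0.0631, 0.0675 and 0.0646), nor the merging of replicates 3 and 4 of the other lines (0.0514). Wtap is 1 of 2 genes of the set with 3 RefSeq transcripts in the files, and its effective length, the average over transcripts weighted by their abundance, was longer in the IP than in the input in 10 of 10 pairs, by 96 to 484 bases. In Tet1 it rose from 2842 to 3035 and from 2681 to 2995 bases. The other gene with 3 transcripts, Ythdf3, moved by between -1 and 29 bases, and the 8 genes with 1 transcript by at most 1 base. TPM divides by this length, so a fixed number of Wtap reads gives a lower TPM in IP than in input. The edgeR fit uses counts not divided by length, so longer transcripts raise its value for an equal number of molecules. With limma on log2(TPM + 1) the Tet1 value was 0.96 (adjusted p = 0.0413), where the median of all genes was 0.08. Wtap also passed with limma in Tet2 (0.465, adjusted p = 0.0385) and Tet2dRBD (0.533, adjusted p = 0.0328), where the medians were 0.23 and 0.19. What part the length has in the Wtap values was not tested.

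Mettl14, the partner that forms a heterodimer with Mettl3, passed the test in no line. It lay above input in 9 of 10 pairs, with Tet2dRBD replicate 4 the exception. Its inputs ranged from 5.43 to 13.5 TPM and its log2 ratios from -0.18 to 0.81, with a median of 0.22. The highest ratio was that of Tet2 replicate 1, where the IP was at 21.1 TPM against 10.5 to 11.1 in the other Tet2 IPs. The fitted values were 0.16 in Tet1 (95% interval -0.37 to 0.69), -0.02 in Tet2 (-0.40 to 0.36) and 0.04 in Tet2dRBD (-0.34 to 0.42), none past the threshold. Within a pair the ratio of Mettl3 exceeded that of Mettl14 in 9 of 10 pairs, by a median of 0.25 on the log2 scale, a difference that was not tested.

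Neither eraser passed the edgeR test in any line. Fto, whose protein also demethylates the cap-adjacent base m6Am, had inputs of 47.5 and 52.2 TPM in Tet1 and IPs of 50.1 and 50.7 TPM. In Tet2 its inputs were at 39.2, 60.4, 23.8 and 21.4 TPM and its IPs at 56.1, 91.7, 31.3 and 30.3 TPM, above the matching input in 4 of 4 pairs. In Tet2dRBD the inputs were at 44.4, 63.7, 32.9 and 32.4 TPM and the IPs at 50.7, 45.1, 44.9 and 47.4 TPM, above input in 3 of 4, with replicate 2 the exception. The fitted values for Fto were -0.13 in Tet1 (95% interval -0.54 to 0.28), 0.19 in Tet2 (-0.10 to 0.48) and -0.10 in Tet2dRBD (-0.40 to 0.19). The sign turned with limma on TPM in Tet1 (0.02) and in Tet2dRBD (0.17), and without Tet2dRBD replicate 2 (0.09), short of the threshold each time. In Tet2 limma on log2(TPM + 1) gave Fto 0.49 and an adjusted p of 0.019, past it.

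Alkbh5, a nuclear demethylase with a role in mRNA export, lay below input in both Tet1 pairs (32.5 and 33.3 TPM in input, 29.7 and 32.0 TPM in IP) and above it in 4 of 4 Tet2 pairs. In Tet2 its inputs were at 57.1, 37.3, 21.3 and 19.8 TPM and its IPs at 65.0, 61.3, 24.0 and 21.9 TPM. In Tet2dRBD its inputs were at 49.4, 36.1, 19.8 and 18.6 TPM and its IPs at 71.1, 31.1, 30.2 and 28.9 TPM, with replicate 2 alone below input. The fitted values were -0.24 in Tet1 (95% interval -0.62 to 0.13), -0.01 in Tet2 (-0.28 to 0.25) and 0.11 in Tet2dRBD (-0.15 to 0.38).

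The readers included the gene with the highest median ratio, Ythdf2, and the one with the lowest, Ythdf1, which are closely related. Ythdf1, Ythdf2 and Ythdf3 code for cytoplasmic proteins of nearly the same build, each ending in a YTH domain: Ythdf2 recruits the CCR4-NOT deadenylase to methylated mRNA, Ythdf1 has been linked to translation, and Ythdf3 acts with both. Because reads could in principle be shared between such paralogues, their coding sequences were compared. The annotation (NCBIM37/mm9, the build the authors used, GENCODE vM1) places Ythdf1 at chr2:180639082-180655654 on the minus strand, Ythdf2 at chr4:131740827-131768218 on the minus strand and Ythdf3 at chr3:16083183-16117035 on the plus strand. Aligned over 1664 bases, the coding sequences of Ythdf2 and Ythdf1 were 69.2% identical, those of Ythdf2 and Ythdf3 70.4% and those of Ythdf1 and Ythdf3 70.1%. The longest run of identical bases in their longest transcripts was 22 for Ythdf1 and Ythdf2 and 17 for each of the other pairs. The gapless stretch of 120 bases in which they differ least runs from base 1191 to base 1310 of the 1740 coding bases of Ythdf2. Its position relative to the YTH domain was not determined. The stretch is shown, 5′ to 3′ in the sense of the mRNA, because it is where reads of the 3 genes would be hardest to separate. Of its 120 bases 88 are shared by all and the 32 that are not are in capitals. It comes from exon 4 of 5 in Ythdf1 (chr2:180645798-180645917), exon 4 of 5 in Ythdf2 (chr4:131760453-131760572) and exon 5 of 6 in Ythdf3 (chr3:16104899-16105018).
Ythdf1: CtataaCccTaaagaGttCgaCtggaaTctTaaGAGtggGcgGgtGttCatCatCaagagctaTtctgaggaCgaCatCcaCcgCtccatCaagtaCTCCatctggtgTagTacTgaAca
Ythdf2: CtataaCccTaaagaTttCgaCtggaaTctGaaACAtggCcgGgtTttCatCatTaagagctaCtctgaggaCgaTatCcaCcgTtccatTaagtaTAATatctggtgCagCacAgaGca
Ythdf3: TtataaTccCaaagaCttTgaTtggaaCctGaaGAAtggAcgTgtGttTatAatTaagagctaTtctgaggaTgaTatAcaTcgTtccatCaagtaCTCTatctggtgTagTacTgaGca

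Ythdf2 passed the test as higher in IP in all 3 lines, which no other gene of the set did. The share of all genes that did so was not counted, and cannot exceed the 2.72% that were higher in Tet1 IP. In Tet1 its inputs were at 15.1 and 10.5 TPM and its IPs at 27.2 and 24.4 TPM. In Tet2 the inputs of replicates 1 to 4 were at 14.1, 11.2, 11.8 and 12.8 TPM and the IPs at 30.1, 22.6, 19.3 and 18.4 TPM. In Tet2dRBD the inputs were at 17.2, 6.54, 13.6 and 20.5 TPM and the IPs at 36.8, 15.3, 25.7 and 23.3 TPM. IPs and inputs did not overlap in Tet1 or Tet2, and overlapped in Tet2dRBD, where replicate 2 was low and replicate 4 high in input. Each IP exceeded its own input in 10 of 10 pairs, by 0.18 to 1.14 on the log2 scale with a median of 0.91, and the lowest value was that of Tet2dRBD replicate 4. In the edgeR fit the log2 change was 0.88 ± 0.23 in Tet1 (adjusted p = 0.0485), 0.52 ± 0.16 in Tet2 (adjusted p = 0.0293) and 0.58 ± 0.16 in Tet2dRBD (adjusted p = 0.0307). These calls rested on few libraries. In Tet2 each of the 4 Tet2 pairs was needed (adjusted p = 0.0528 to 0.0906 without 1 of them), in Tet2dRBD replicates 1, 2 and 3 (0.0867, 0.0609 and 0.0925), and in Tet1 both Tet1 pairs (0.32 and 0.606), Tet2 replicates 1, 3 and 4 (0.0559, 0.0661 and 0.0704) and Tet2dRBD replicate 3 (0.0684). With replicates 3 and 4 merged, the adjusted p in Tet1 was 0.0533. The direction was the same in every fit run.

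Ythdf1, the most abundant of the 10 in the inputs, was lower in IP. In Tet1 its inputs were at 90.0 and 90.6 TPM and its IPs at 74.0 and 70.7 TPM. In Tet2 the inputs of replicates 1 to 4 were at 68.5, 95.5, 63.2 and 62.6 TPM and the IPs at 56.4, 94.9, 56.4 and 53.4 TPM. In Tet2dRBD the inputs were at 80.1, 104, 69.7 and 68.2 TPM and the IPs at 77.2, 75.8, 74.0 and 66.8 TPM. The IP was below its own input in 9 of 10 pairs, with Tet2dRBD replicate 3 the exception, and the log2 ratios ran from -0.45 to 0.08. Groups did not overlap in Tet1 and overlapped in Tet2, through replicate 2, and in Tet2dRBD. The fitted log2 change was -0.49 ± 0.09 in Tet2 (adjusted p = 0.00352, edgeR) and -0.39 ± 0.09 in Tet2dRBD (adjusted p = 0.0173), and the Tet1 value of -0.47 ± 0.13 missed the threshold (adjusted p = 0.0627). Without any 1 pair the Tet2 call held in 10 of 10 refits (adjusted p = 0.00426 to 0.0385), whereas the Tet2dRBD call was lost without Tet2dRBD replicate 1, 2 or 3 (0.0931, 0.0705 and 0.0634) and with replicates 3 and 4 merged (0.0737). The call did depend on the scaling: with limma on TPM the median of all genes moved to 0.23 in Tet2 and 0.19 in Tet2dRBD, and the values of Ythdf1 there missed the threshold, so it was lower than the typical gene more clearly than it was lower in TPM. In Tet2 it lay at the 14.3, 26.9, 19.8 and 19.8 percentile of the expressed genes' ratios.

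Within each pair the ratio of Ythdf2 exceeded that of Ythdf1 in 10 of 10 pairs, by 0.21 to 1.56 with a median of 1.02 on the log2 scale, a difference that does not depend on how a pair was scaled. Ythdf3 lay between them in most pairs: it was below Ythdf2 in 10 of 10 and above Ythdf1 in 9 of 10. Its inputs ranged from 7.78 to 15.2 TPM, and its fitted values were 0.23 in Tet1 (95% interval -0.12 to 0.57), -0.21 in Tet2 (-0.46 to 0.03) and -0.11 in Tet2dRBD (-0.35 to 0.13). With limma on log2(TPM + 1) the sign of Ythdf3 turned in Tet2 (0.09) and Tet2dRBD (0.15), short of the threshold.

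Ythdc1, the nuclear reader that acts in splicing and export, and Ythdc2, the helicase-containing reader known for meiosis, did not pass the edgeR test in any line. Ythdc1 had inputs of 6.42 to 21.9 TPM and log2 ratios from -0.36 to 0.80, both extremes of the ratio being Tet2dRBD pairs (replicates 4 and 1). Its fitted values were 0.13 in Tet1 (95% interval -0.33 to 0.60), -0.07 in Tet2 (-0.40 to 0.26) and -0.11 in Tet2dRBD (-0.44 to 0.22), and with limma on log2(TPM + 1) Ythdc1 was at 0.23 in Tet2 and 0.16 in Tet2dRBD. Ythdc2 was barely expressed, at 0.59 to 1.92 TPM in the inputs, and above input in 9 of 10 pairs. Its fitted values of 0.68 in Tet1 (-0.04 to 1.40), 0.46 in Tet2 (-0.06 to 0.97) and 0.20 in Tet2dRBD (-0.31 to 0.71) had the widest intervals of the set, and the added 1 TPM pulls its ratios toward 0. Limma on log2(TPM + 1) put Ythdc2 past the threshold in Tet2 (0.46, adjusted p = 0.042), where the median of all genes was 0.23, and not in Tet1 or Tet2dRBD.

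**Figure D2:**
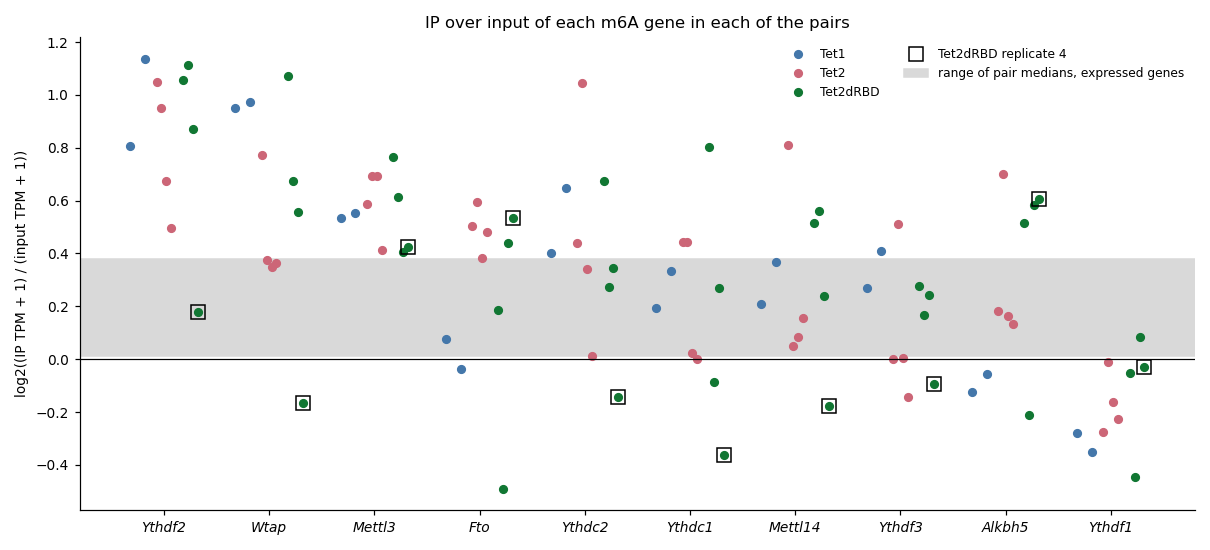
Log2 ratio of IP to input, with 1 added to each TPM (y axis), for each of the 10 genes (x axis, by median) in each pair of Tet1 (blue), Tet2 (red) and Tet2dRBD (green); the grey band is the range of the medians of all expressed genes in the 10 pairs, 0.01 to 0.38, and squares mark Tet2dRBD replicate 4. Mettl3 lies above the band in 10 of 10 pairs, and Ythdf1 below it in 9 of 10.

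By the simplest rule, an IP above its input in every replicate, 7 of the 10 genes qualified in Tet1, 8 in Tet2 and 2 in Tet2dRBD. Of the 19636 genes with any TPM, 39.7% qualified in Tet1, 33.9% in Tet2 and 23.6% in Tet2dRBD, and of the 11784 expressed genes, with a mean input of at least 1 TPM, 50.5%, 47.0% and 31.0%. Tet1 left out Fto, Alkbh5 and Ythdf1, Tet2 left out Ythdf1 and Ythdf3, and Tet2dRBD kept Mettl3 and Ythdf2. The share of expressed genes above input in all 10 pairs, as these 2 were, was not counted. It is at most the 31.0% of Tet2dRBD. The Tet2dRBD count was set by few libraries: without Tet2dRBD replicate 4 it was 6 genes (Mettl3, Mettl14, Wtap, Ythdf2, Ythdf3 and Ythdc2), beside 38.9% of expressed genes, and without replicate 2 it was 4 (Mettl3, Fto, Alkbh5 and Ythdf2), beside 54.0%. When the mean of the IPs was set against the mean of the inputs, 9 of the 10 genes were higher in Tet2dRBD IP, 9 in Tet2 IP and 8 in Tet1 IP, beside 70.5%, 72.3% and 59.1% of expressed genes. The rule also followed the scaling, since the median ratio of expressed genes was above 0 in all 10 pairs: after centring each pair on that median, 7 genes qualified in Tet1, 3 in Tet2 (Mettl3, Fto and Ythdf2) and 2 in Tet2dRBD, beside 42.1%, 27.9% and 18.7% of expressed genes. Asking for 1.5 times input in every replicate left Wtap and Ythdf2 in Tet1 and no gene of the set in the other lines, beside 8.55% of expressed genes in Tet1, 6.48% in Tet2 and 1.37% in Tet2dRBD. In the opposite direction, Alkbh5 and Ythdf1 were below input in every Tet1 pair and Ythdf1 in every Tet2 pair, while no gene of the set was in Tet2dRBD. The shares of all genes below input throughout were 24.5%, 9.15% and 6.62%.

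By the test, 2 of the 10 genes were higher in Tet1 IP (Wtap and Ythdf2) and 0 lower, where 2.72% of the 13710 genes tested were higher and 3.18% lower. In Tet2 IP, 2 were higher (Mettl3 and Ythdf2) and 1 lower (Ythdf1), against 14.6% higher and 18.5% lower of all genes. In Tet2dRBD IP, 1 was higher (Ythdf2) and 1 lower (Ythdf1), against 7.4% and 12.1%. In Tet2 the shares of the set, 2 and 1 of 10, were thus near those of all genes. For Tet1, 0 lower compares with Ythdf1 at an unadjusted p of 0.00472, and DESeq2 put that gene past the threshold. The median fitted log2 change of the 10 genes was 0.20 in Tet1, 0.09 in Tet2 and 0.07 in Tet2dRBD, beside -0.04, 0.00 and -0.01 for all genes. Under limma on log2(TPM + 1) the split of all calls turned from 2007 higher and 2533 lower to 4801 and 1113 in Tet2, from 1014 and 1660 to 3224 and 629 in Tet2dRBD, and from 373 and 436 to 492 and 144 in Tet1.

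**Figure D3:**
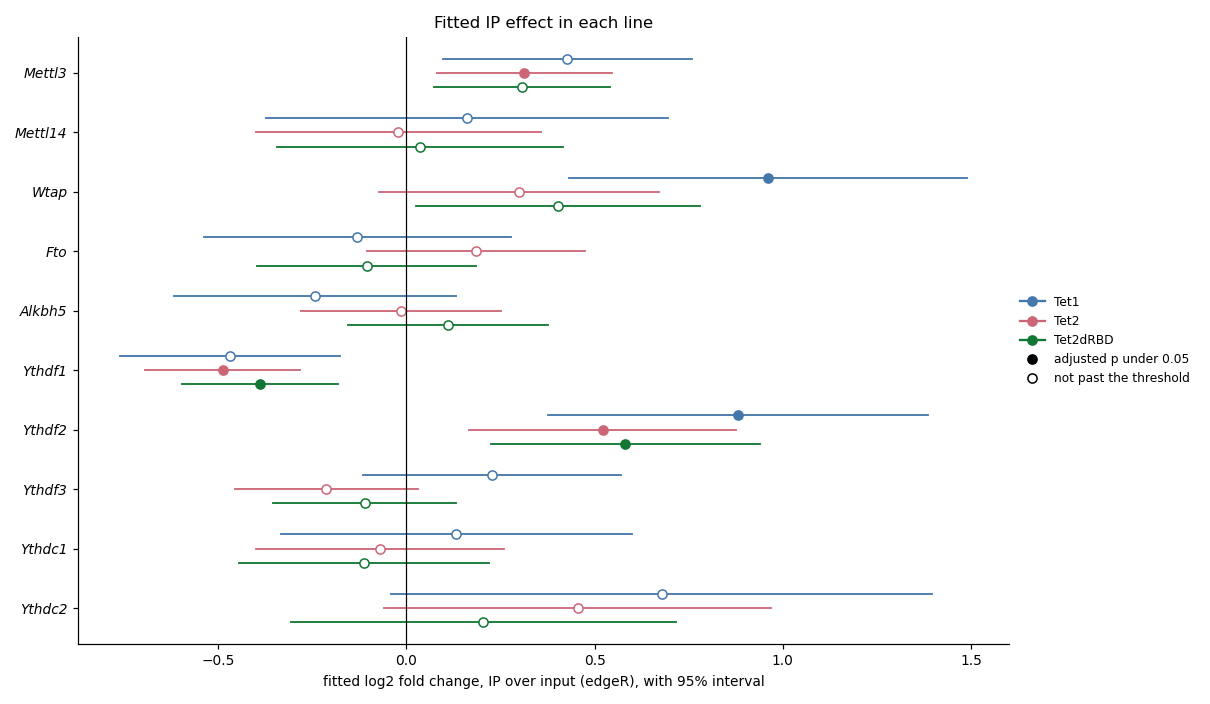
Fitted log2 fold change of IP over input from edgeR (x axis) with its 95% interval for each gene (y axis) in Tet1 (blue), Tet2 (red) and Tet2dRBD (green); filled points have an adjusted p under 0.05 over all 13710 genes. Ythdf2 is filled on the right in all 3 lines, and Ythdf1 on the left in Tet2 and Tet2dRBD.

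To ask whether the RNA-binding domain mattered, the fitted IP effect of Tet2dRBD was subtracted from that of Tet2. None of the 10 genes passed, and 0 had an unadjusted p under 0.05, where 0.0219% of all genes (3 of 13710) passed. The adjusted p was 1.00 for each of the 10. The difference was 0.01 for Mettl3 (95% interval -0.32 to 0.34), -0.06 for Ythdf2 (-0.56 to 0.44) and -0.10 for Ythdf1 (-0.39 to 0.19), all on the log2 scale. The intervals for Wtap (-0.63 to 0.43) and Ythdc2 (-0.47 to 0.98) leave room for differences of considerable size, and that of Fto ran from -0.12 to 0.70. The 10 values lay between -0.13 and 0.29. No alternative put a gene of the set past the threshold here, DESeq2 and limma included.

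For Tet1 against Tet2 the difference in IP effect was likewise past the threshold for 0 of the 10 genes, and for 0.0% of all genes in edgeR, although 517 genes had an unadjusted p under 0.05 and DESeq2 passed 13. Wtap, with 0.66 (95% interval 0.02 to 1.30, unadjusted p = 0.0454), and Ythdf3, with 0.44 (0.02 to 0.86, unadjusted p = 0.0416), had an adjusted p of 0.94. Alkbh5, below input in both Tet1 pairs and above it in 4 of 4 Tet2 pairs, had a difference of -0.23 (-0.69 to 0.23). Within the library set of Tet1 alone (Tet1 replicates 1 and 2 and Tet2 replicates 3 and 4, whose pairs are close repeats), 5 genes passed: Wtap, Ythdf2, Ythdf3 and Ythdc1 with the larger effect in Tet1 and Fto with the larger in Tet2. In that fit 17.2% of all genes passed (2262 of 13181).

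**Figure D4:**
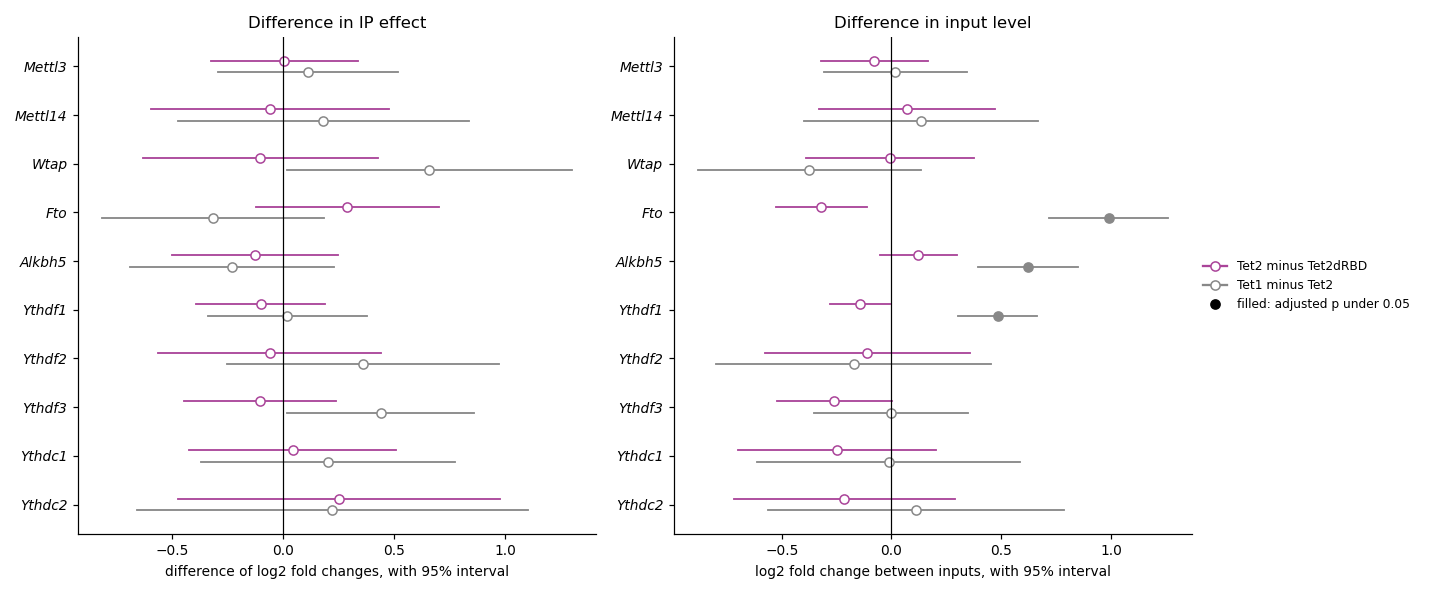
Left, difference between lines in the fitted IP effect, and right, log2 difference between the inputs (x axes, edgeR) with 95% intervals for each gene (y axes), for Tet2 minus Tet2dRBD (purple) and Tet1 minus Tet2 (grey); filled points have an adjusted p under 0.05. In the left panel no point is filled, and in the right panel Fto, Alkbh5 and Ythdf1 are filled for Tet1 minus Tet2.

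The inputs show how the lines differed before precipitation. With library set as a term, Fto was higher in Tet1 than in Tet2 input by 0.99 ± 0.12 (log2, SE; adjusted p = 0.000676), Alkbh5 by 0.62 ± 0.10 (adjusted p = 0.00227) and Ythdf1 by 0.48 ± 0.08 (adjusted p = 0.00242, edgeR). Thus 3 of the 10 genes were higher and 0 lower in Tet1, beside 17.5% and 14.0% of all genes. The comparison rests in effect on the shared set, where Fto was at 47.5 and 52.2 TPM in Tet1 and at 23.8 and 21.4 TPM in Tet2 replicates 3 and 4. The Tet2 inputs of the other sets were at 39.2 and 60.4 TPM, so that the lines overlapped over all sets. Alkbh5 was at 32.5 and 33.3 TPM in Tet1 and at 21.3 and 19.8 TPM in those Tet2 replicates, with the other Tet2 inputs at 57.1 and 37.3 TPM. These 3 genes passed without any 1 Tet2 or Tet2dRBD input. With either Tet1 input left out the values were 1.08 and 0.90 for Fto, 0.66 and 0.585 for Alkbh5, and 0.51 and 0.459 for Ythdf1. An input left out of the shared set has a near repeat there (mean chi-square 8.04 between the Tet1 inputs, 3.62 between Tet2 inputs 3 and 4). These refits thus say little about separate cultures. None of the 3 passed without the library set term, where the value of Alkbh5 was -0.11. Between the Tet2 and Tet2dRBD inputs 0 of the 10 genes passed, beside 1.79% of all genes higher and 1.35% lower in Tet2. Fto came closest, at -0.32 (95% interval -0.53 to -0.11, adjusted p = 0.097), and Ythdf1, at -0.14, was the other gene with an unadjusted p under 0.05. Without Tet2dRBD input replicate 2, Fto and Ythdc1 passed (adjusted p = 0.0446 for Fto), and without Tet2 input replicate 2, Ythdc1 did. Calls among all genes rose as well, from 418 of 13310 in the main fit to 1479 of 13254 and 1516 of 13277.

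The GC content of a transcript and the IP ratio moved together in some pairs and not in others. Taken over the longest annotated coding transcript, the 10 genes ran from 38.5% GC in Ythdf3, 39.6% in Wtap, 40.2% in Ythdc2 and 41.9% in Ythdc1, through 46.1% in Ythdf2, 46.5% in Mettl14, 49.1% in Ythdf1 and 49.3% in Mettl3, to 50% in Alkbh5 and 52.1% in Fto. This transcript is not always the form that was quantified. It has 4346 bases in Ythdc1 and 5730 in Alkbh5, against median effective lengths of 2966 and 5957. Ythdf3 and Wtap lay at the 1.2 and 2.5 percentile of expressed genes. In Tet2dRBD replicate 4, the 5 genes of lowest GC (Ythdf3 to Ythdf2 in that order) had a median log2 ratio of -0.15 and 1 of them was above input, whereas the other 5 had a median of 0.42. In Tet2dRBD replicate 2 the order was the reverse, 0.27 against -0.21, and in Tet1 the 5 low-GC genes were above input in both pairs with medians of 0.40 and 0.65, against 0.08 and -0.04. Over 11281 expressed genes Spearman's rho between GC and ratio was 0.46 in Tet2dRBD replicate 4, -0.27 in Tet2dRBD replicate 2 and between -0.16 and 0.20 in the other pairs. Genes share libraries here, so rho describes a pair and was given no p. The 2 Tet2dRBD pairs that decided the rule of IP above input were thus those with the most extreme relation to GC. Effective length also moved with the ratio, with rho between 0.15 and 0.60. Ythdf1 (3103 bases) and Ythdf2 (4010 bases) lay at the 62.6 and 77.0 percentile of length. What part GC or length has in any result was not tested.

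**Figure D5:**
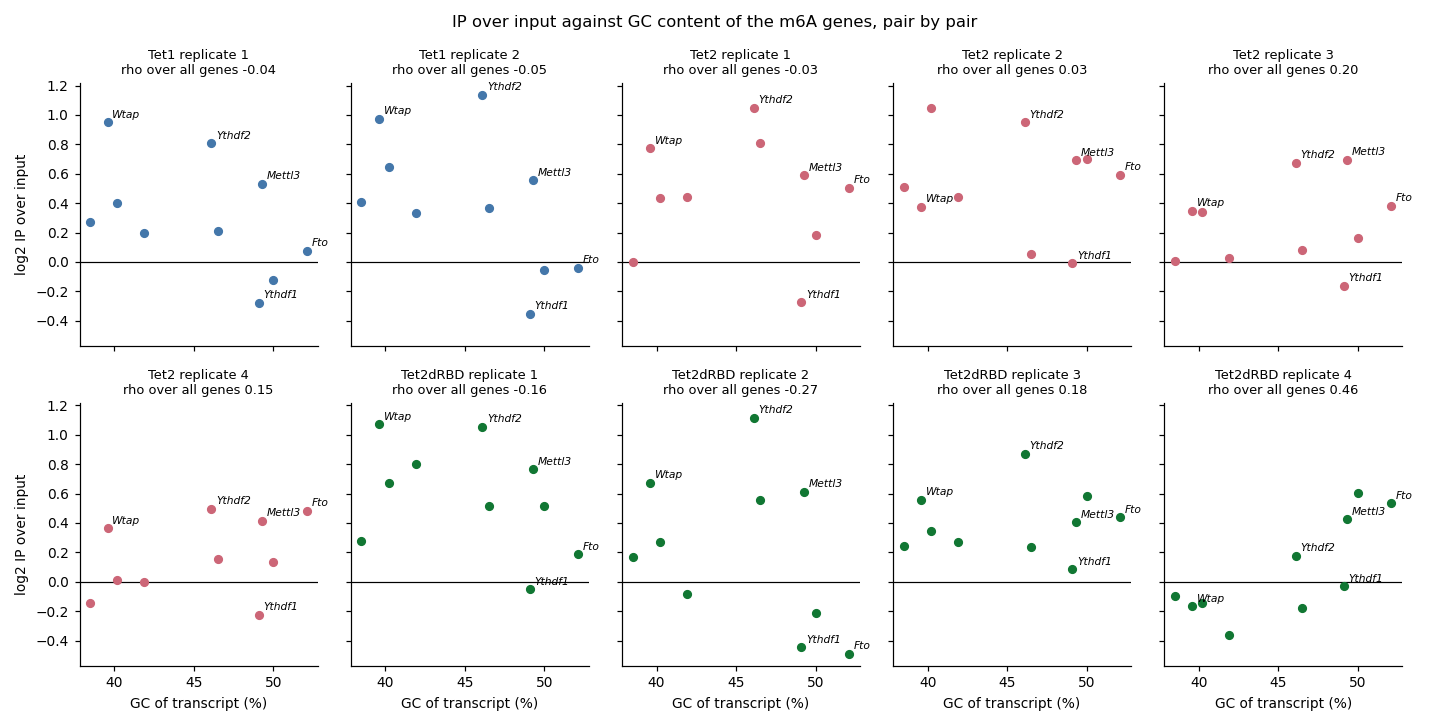
Log2 ratio of IP to input (y axis, 1 added to each TPM) against the GC percentage of the longest coding transcript (x axis) for the 10 genes, 1 panel for each pair; the panel titles give Spearman's rho over 11281 expressed genes. In Tet2dRBD replicate 4, 1 of the 5 low-GC genes lies above 0, and in Tet2dRBD replicate 2 Fto lies lowest at -0.49.

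Another 26 genes of the m6A pathway were followed as a list. Of these, 0 were higher and 2 lower in Tet1 IP, 2 higher and 7 lower in Tet2 IP, and 0 higher and 6 lower in Tet2dRBD IP. The shares of all genes were 2.72% higher and 3.18% lower in Tet1, 14.6% and 18.5% in Tet2, and 7.4% and 12.1% in Tet2dRBD. Their median log2 change was -0.03, -0.07 and -0.15, beside 0.20, 0.09 and 0.07 for the 10 core genes. Among the 5 regulatory subunits of the writer complex, Cbll1 (the ubiquitin ligase Hakai) was lower in all 3 lines, at -0.72 ± 0.16 in Tet1 (adjusted p = 0.0351), -1.02 ± 0.12 in Tet2 (adjusted p = 0.000258) and -0.85 ± 0.12 in Tet2dRBD (adjusted p = 0.00126). Rbm15b, an RNA-binding adaptor of the complex, was higher in Tet2 by 0.37 ± 0.12 (adjusted p = 0.0343, edgeR). Virma (listed as 1110037F02Rik), Zc3h13 and Rbm15 passed in no line. The writer complex thus held transcripts on both sides, with Mettl3 and Cbll1 in opposite directions in Tet2 IP.

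Of 6 partners of the YTH readers, Srsf3, a splicing factor recruited by Ythdc1, was lower in Tet1 (-0.80 ± 0.16), Tet2 (-0.67 ± 0.11) and Tet2dRBD (-0.93 ± 0.11). Its competitor Srsf10 was lower in Tet2 and Tet2dRBD (-0.46 and -0.48). Rida (listed as Hrsp12), an adaptor between Ythdf2 and endoribonuclease cleavage, was lower in Tet2 (-1.52 ± 0.20) and Tet2dRBD (-1.28 ± 0.20). Ythdf2 itself was higher in both of these lines. Of 9 other m6A readers, Hnrnpa2b1 (-1.20 and -0.94) and Hnrnpc (-0.45 and -0.48) were lower in Tet2 and Tet2dRBD, and Prrc2a was higher in Tet2 by 0.60 ± 0.17. The Hnrnpc calls were close to the threshold (adjusted p = 0.0451 and 0.0494, edgeR), unlike those of Hnrnpa2b1 (0.00105 and 0.00685). How the calls of the 26 genes fare with a pair left out is not given here. Of 6 genes of the other m6A methyltransferases, Trmt112, the shared partner protein of several methyltransferases, was lower in Tet2 (-0.71 ± 0.15). No gene of the 26 differed in IP effect between Tet2 and Tet2dRBD or between Tet1 and Tet2, and 0 had an unadjusted p under 0.05 there. In the inputs, Igf2bp1 and Upf1 were lower in Tet2 than in Tet2dRBD (-0.40 and -0.33), and 8 of the 26 were higher in Tet1 than in Tet2: Upf1 (1.17), Cnot1 (0.77), Igf2bp1 (0.64), Nxf1 (0.61), Hnrnpc (0.50), Prrc2a (0.45), Rbm15 (0.42) and Rida (0.41). Of all genes 17.5% were higher in that comparison, and without the library set term 54 of 13310 genes passed in either direction.

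Over the 10 pairs some of the core genes had like profiles. Among 8467 genes with a mean input of at least 5 TPM, those whose log2 ratio was most like that of Alkbh5 were Hic2, Tm9sf4 and Hs3st3b1 (Pearson r = 0.988, 0.986 and 0.984), and within the set Ythdf1 came closest (r = 0.94) and Fto next (0.734), although Alkbh5 and Ythdf1 differed in level of enrichment. The profile of Ythdf2 was most like those of Krr1, Zfp191 and D14Ertd668e (0.958, 0.956 and 0.955) and, within the set, that of Wtap (0.825). Mettl3, with little variation between pairs, had lower best matches (Mir17hg 0.859, Prrx2 0.841 and Fam175b 0.833) and r = 0.333 with Mettl14. These coefficients describe 10 pairs that share library sets and depth, and carry no p.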

How the data were processed

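RIP-Seq of 20 libraries (10 IP and input pairs) was analysed. The authors trimmed reads (Trimmomatic), aligned them with Bowtie2 to RefSeq transcripts of mm9 and quantified genes with RSEM. Their deposited files give an unnormalized expected count for each gene, FPKM (not used) and TPM + 1, from which 1 was subtracted here. Rounded expected counts were fitted with edgeR 4.0.16 (TMM, quasi-likelihood F test, at least 1 CPM in 2 libraries) over all libraries, with 1 block per pair and separate IP effects by line. SE and 95% intervals come from the F statistic, and p-values were adjusted by Benjamini-Hochberg over all genes tested. Inputs were fitted with library set and line. Library sets were read from the deposited names. IP and input of the same number deviated together (r = 0.184 in Tet1, 0.578 to 0.862 elsewhere), and the numbers were taken to pair the samples. Replicates 3 and 4 were not told apart this way. The replicate 4 IP had r = 0.779 with input 3 and 0.757 with input 4 in Tet2, and 0.686 and 0.578 in Tet2dRBD. The replicate 3 IP was nearer to its own input (0.777 against 0.749 in Tet2, 0.707 against 0.583 in Tet2dRBD). Alternatives used DESeq2 1.42.0, limma 3.58.1 on log2(TPM + 1) or log2(TPM + 0.1), no filter, other sample sets and each pair left out. Scripts were tested on simulated data. The genes named are the 10 core genes, any of 26 other m6A pathway genes past the threshold, and the 3 genes most like Mettl3, Alkbh5 and Ythdf2. The genes and lists were chosen with earlier results of these data known. Coordinates, GC and sequences come from GENCODE vM1 on NCBIM37.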

Additional observations from a re-analysis of the deposited data

Results flagged for a closer look

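Among 60 groups of 4 libraries or pairs of the 10 genes, 9 held 1 value far from the other 3, measured as its gap to the nearest value over the whole range; chance gives about 1 in 20 for 4 independent values, a share that does not apply here, since replicates 3 and 4 are close repeats. In Tet2 IP, Mettl3 was at 28.5 TPM in replicate 2 (others 18.5 to 20.02), Ythdf1 at 94.9 TPM in replicate 2 (others 53.4 to 56.4) and Mettl14 at 21.1 TPM in replicate 1 (others 10.5 to 11.1). In the Tet2 inputs, Ythdf3 was at 12.6 TPM in replicate 1 (others 8.21 to 8.58). In Tet2dRBD IP, Alkbh5 was at 71.1 TPM in replicate 1 (others 28.9 to 31.1). Of the log2 ratios of IP to input, Tet2 replicate 1 was apart for Mettl14 (0.81, others 0.05 to 0.16) and Wtap (0.77, others 0.35 to 0.38), Tet2 replicate 2 for Alkbh5 (0.70, others 0.13 to 0.18), and Tet2dRBD replicate 2 for Alkbh5 (-0.21, others 0.52 to 0.61). All 9 lie in replicate 1 or 2, which come from library sets of their own. Replicates 3 and 4 are close repeats that share a set, so neither could readily lie far from the other 3 values. Where the 9 lie was thus largely fixed by the design.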

How the results depend on the processing

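The counts of the 10 genes past the threshold moved with the processing, given here against the reported 2 higher and 0 lower in Tet1, 2 and 1 in Tet2, and 1 and 1 in Tet2dRBD. With no replicate block, so that IP and input were not paired, 0 genes passed in either direction in any line, and 0, 375 and 46 of all genes did in Tet1, Tet2 and Tet2dRBD (809, 4540 and 2674 with pairing). With limma on log2(TPM + 1), 5 were higher and 0 lower in Tet2, and 3 higher and 0 lower in Tet2dRBD. Of all 13710 genes tested, 4801 were higher and 1113 lower in Tet2 in that setting, and 3224 and 629 in Tet2dRBD. With DESeq2, 1 was lower in Tet1 and 3 higher in Tet2dRBD. Of all 13710 genes, 1578 passed in Tet1 (737 lower), and 1761 were higher in Tet2dRBD. Fitting the compared lines only gave 5 higher and 2 lower in Tet1, 1 higher in Tet2, and 0 and 0 in Tet2dRBD. Of all genes, 6985 of 12691 passed in Tet1 (3602 higher and 3383 lower), and 748 of 13260 in Tet2dRBD. In Tet2, 1781 of 13231 were higher. Merging replicates 3 and 4 gave 0 higher in Tet1, 1 higher in Tet2 and 0 lower in Tet2dRBD. Of 13610 genes, 316 passed in Tet1 (186 higher), 3191 in Tet2 (1264 higher) and 1060 in Tet2dRBD (636 lower). Without the filter 1 was higher in Tet2, beside 1932 of all 19601 genes. Leaving out 1 pair of Tet2 or Tet2dRBD gave 0 to 2 higher and 0 to 1 lower in Tet1, 0 to 2 higher in Tet2, and 0 to 2 higher and 0 to 1 lower in Tet2dRBD. Of all 13610 to 13692 genes, 144 to 729 were then higher and 177 to 776 lower in Tet1. In Tet2, 1224 to 2733 were higher, and in Tet2dRBD 207 to 1439 were higher and 588 to 1980 lower. Where leaving out a pair left Tet1 with 1 pair, that pair was assumed to vary like the other lines. The Tet2 against Tet2dRBD difference stayed at 0 in every alternative run, while Tet1 against Tet2 gave 5 within the library set of Tet1 (2262 of 13181 genes). For inputs, 0 to 2 genes passed between Tet2 and Tet2dRBD with 1 input left out, beside 33 to 1516 of all genes. Without the library set term 0 passed between Tet1 and Tet2, with Alkbh5 at -0.11. All-gene input calls between Tet2 and Tet2dRBD (418) were 858 with DESeq2, 0 without the library set term and 5 with a replicate block, and those between Tet1 and Tet2 (4191) were 54 without the library set term. IP above input in every replicate held for 2, 0 and 0 genes in Tet1, Tet2 and Tet2dRBD at 1.5 times input, for 3 in Tet2 after centring, for 9 in Tet2dRBD by group means, and for 2 to 6 in Tet2dRBD with 1 pair left out. With 2 to 4 pairs a line, the spread between libraries, and at about 1 TPM the depth for Ythdc2, limit what could be detected. The cause of these changes was not tested.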
